A study of Homo sapiens with 10 samples.

Results

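Expressed ZNF zinc finger genes were described in KOPT-K1 cells, a human leukaemia line of the T-cell lineage (T-ALL), by total RNA sequencing and ribosome profiling, which sequences the RNA fragments that ribosomes protect (footprints). The set was chosen by symbol and RNA level. It held the protein-coding genes whose symbol is ZNF followed by a digit and whose mean total RNA value over the 6 RNA libraries was at least 2 RPKM (reads per kilobase of gene length, scaled to the reads of the library). Of 505 protein-coding ZNF genes among the 55889 gene IDs in the files, 290 met the rule (57.43%). Of these, 141 lay on chromosome 19 and 149 on other chromosomes, with 23 on chromosome 7, 20 on chromosome 16 and 16 on chromosome 1. The rule went by symbol, so 4 members were entries with compound symbols. They were ZNF593OS, annotated on the strand opposite to ZNF593, and ZNF670-ZNF695, ZNF816-ZNF321P and ZNF286A-TBC1D26. Because RNA level chose the genes, their RNA levels are given as a description with no test. The change between treatments is not part of the rule. The set was chosen with earlier results of these data known, however, so its changes as a group are described and not tested. The lowest members were ZNF44, ZNF135 and ZNF786, with mean RNA values of 2.012, 2.025 and 2.028 RPKM, and the highest genes left out were ZNF75A, ZNF718 and ZNF189, with 1.995, 1.987 and 1.953 RPKM.

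Cells received 25 nM silvestrol, a plant compound that blocks the RNA helicase eIF4A, which unwinds messenger RNA for translation, or the vehicle DMSO, in each case for 45 minutes in RPMI medium with foetal bovine serum. Silvestrol-treated cells gave 3 RNA and 2 footprint libraries, and DMSO-treated cells gave 3 RNA and 2 footprint libraries. All 10 libraries come from 1 cell line, and the labels do not say whether replicates were separate cultures, so the p-values rest on differences among libraries that may be technical replicates.

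Most ZNF proteins bind DNA through an array of C2H2 zinc fingers, short modules that each hold a zinc ion between a pair of cysteines and a pair of histidines and are joined by a conserved linker. Many also carry a KRAB domain, which recruits the corepressor TRIM28 (KAP1) and, through it, the histone methyltransferase SETDB1 and heterochromatin proteins that silence retroelements and some genes. KRAB zinc finger genes multiplied by tandem duplication, and the largest human clusters lie on chromosome 19, so neighbouring genes can be very alike in sequence. A smaller group of ZNF proteins has no KRAB domain and serves as activators, RNA-binding proteins or factors of the ribosome and the spindle.

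The likeness between members is shown by the stretch that codes for the linker between fingers. It was read in windows of 29 bases, about the length of a footprint, and the full length of shared stretches was not measured. The 29-base windows below were read from GENCODE release 29 coding sequences (GRCh38), are written 5′ to 3′, and have the 15 bases of the linker in capitals.
ZNF91: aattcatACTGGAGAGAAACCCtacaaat
ZNF100: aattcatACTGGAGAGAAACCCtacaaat
ZNF611: aattcatACTGGAGAGAAACCTtacaaat
ZNF880: aatccacACTGGAGAGAAACCTtacaaat
ZNF184: aattcatACTGGAGAAAAACCTtacaaat
ZNF146: aattcacACTGGAGAAAAACCTtttgagt
ZNF394: aatccacACAGGTGAGAAACCCtatggct
ZNF91 and ZNF100, both on chromosome 19, carried the same 29 bases, at coding positions 942 to 970 of ZNF91 and 756 to 784 of ZNF100, and these bases occurred at 58 loci in all. The ZNF611 window (positions 1086 to 1114) occurred at 32 loci, the ZNF184 window (1398 to 1426) at 5 and the ZNF880 window (864 to 892) at 4. The windows of ZNF146 (276 to 304) and ZNF394 (1134 to 1162) occurred at 1 locus each. A read of this length from the first 5 of these windows cannot be assigned to 1 gene by its sequence, and how the authors treated such reads is not stated in the labels or headers.

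Over the whole coding sequence, 232 of the 290 members shared at least 1 window of 29 bases with another locus, 130 of 141 on chromosome 19 and 102 of 149 elsewhere. The median share of such windows was 7.29% of a member's coding windows on chromosome 19 and 0.604% on other chromosomes. More than 10% of windows were shared in 59 members on chromosome 19 and 23 elsewhere. The window found in the most members, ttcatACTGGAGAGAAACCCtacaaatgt, stood in 26 of them, 18 on chromosome 19. ZNF417 had the highest share, 79.5%. Exons of 154 members overlapped an exon of another annotated gene, 96 of them on the opposite strand, and whether the counting used strand is not stated in the labels or headers.

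A KRAB pattern, searched in the translated coding sequence, was found in 168 members (57.93%), in 112 of 141 on chromosome 19 (79.43%) and in 56 of 149 elsewhere (37.58%). Such a pattern can miss altered KRAB domains. Members on chromosome 19 had a median of 12 finger motifs and those elsewhere a median of 8, with up to 31 in ZNF91 and ZNF142. No finger motif was found in 6 members, 2 on chromosome 19 and 4 elsewhere. The coding sequence was poorer in G and C on chromosome 19, with a median of 42.3%, against 48.3% in members elsewhere and 51.5% in the 8706 protein-coding genes of other names with at least 2 RPKM. Median coding length was nearly alike, 1731 bases on chromosome 19 and 1749 elsewhere.

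By the size of 1 read in the deposited values, the footprint libraries held an estimated 2.38 M and 2.04 M reads under silvestrol and 2.26 M and 1.67 M under DMSO, and the RNA libraries a rough 126.6 M to 216 M. A member had a median of 32.2 estimated footprint reads per library, against 84.0 for other protein-coding genes of at least 2 RPKM. The median SD between replicates over the 263 members tested in footprints was 0.23 on the log2 scale in footprints in both treatments, and in RNA it was 0.05 in both. All 12 T-cell markers were present, at 3.61 to 674 RPKM of RNA, and the 13 matched markers of stroma and of other blood lineages (B, erythroid, myeloid) were at or under 0.111 RPKM.

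ZNF genes were low in RNA. Mean RNA over the 6 libraries had a median of 4.72 RPKM in members, 3.91 on chromosome 19 and 6.09 elsewhere, against 11.7 in other protein-coding genes that met the same threshold. Only 48 members reached 10 RPKM, 14 on chromosome 19 and 34 elsewhere. ZNF146, a chromosome 19 gene whose protein consists almost wholly of zinc fingers, had the highest mean of the set at 40.1 RPKM. The other 9 of the 10 highest members were ZNF664, ZNF428, ZNF330, ZNF22, ZNF207, ZNF384, ZNF622, ZNF598 and ZNF639, and none of the 10 held the KRAB pattern. ZNF428 was the only other one of them on chromosome 19. It had 29.2, 29.7 and 28.8 RPKM of RNA under silvestrol, against 27.7, 28.9 and 27.2 RPKM under DMSO, and the groups overlapped. ZNF330, which encodes a nucleolar protein, had 27.1, 28.2 and 27.3 RPKM under silvestrol, against 27.3, 26.1 and 26.3 RPKM under DMSO, and ZNF207 had 25.2, 25.0 and 24.4 RPKM under silvestrol, against 24.8, 25.1 and 25.4 RPKM under DMSO. These overlapped too.

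The RNA values of members as a group were higher after silvestrol in every library, by a small amount. The median member stood at 4.91, 4.82 and 4.98 RPKM in the silvestrol libraries, against 4.61, 4.51 and 4.62 RPKM in the DMSO libraries. The groups of libraries did not overlap. The RNA values of all members summed to 1950 ± 15.1 RPKM under silvestrol and to 1842 ± 15.6 RPKM under DMSO (SD, n = 3 each). In the same libraries the median of the 8706 other protein-coding genes of at least 2 RPKM lay between 11.7 and 11.9 RPKM under silvestrol and between 11.7 and 11.8 RPKM under DMSO. RPKM values are relative to the library, so a higher share of ZNF RNA and less of other RNA per cell cannot be told apart, nor can fewer cells of a type and less RNA per cell.

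Gene by gene, changes were computed with limma as the difference in log2(RPKM + 0.5), silvestrol minus DMSO. This scale makes the changes of low genes look smaller. P-values were adjusted by Benjamini-Hochberg over 12350 genes. The log2 change was above 0 in 261 of 290 members (90.0%), against 52.3% of all genes tested. Its median was 0.079 in members, 5.63% higher RNA, and 0.0028 in all genes, and members ran from -0.067 to 0.32. The 3 silvestrol values lay above all 3 DMSO values in 119 members (41.03%), against 8.56% of all genes tested. They lay below all DMSO values in 1 member, against 4.22% of all genes. An unadjusted p under 0.05 was reached by 101 members in the upward direction, against 6.2% of all genes, and by 0 in the downward direction, against 2.46% of all genes. Single genes seldom passed the adjusted test: 2 members were called higher and 0 lower at an adjusted p under 0.05, against 0.0405% of all genes called higher (5 genes) and 0 lower.

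**Figure D1:**
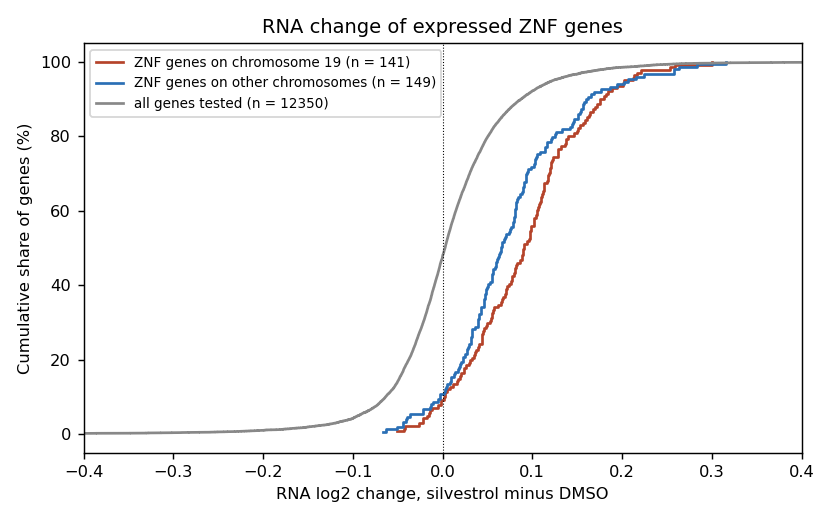
Cumulative share of genes (%) against the RNA log2 change, silvestrol minus DMSO, for 141 ZNF genes on chromosome 19, 149 on other chromosomes and 12350 genes tested. Both ZNF curves lie to the right of the curve of all genes, with medians of 0.091 on chromosome 19 and 0.065 elsewhere against 0.0028.

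ZNF184 (ENSG00000096654, chromosome 6) encodes a KRAB protein with 19 finger motifs. It had 7.76, 7.81 and 7.51 RPKM of RNA in silvestrol libraries, against 6.15, 6.03 and 6.06 RPKM in DMSO libraries. All silvestrol values were higher and the groups stood well apart, and the log2 change was 0.32 (SE 0.033, adjusted p = 0.0377 by limma). Its footprints showed no such order and stood at 7.28 and 5.04 RPKM under silvestrol and at 6.50 and 8.48 RPKM under DMSO, values that overlap. ZNF394 (ENSG00000160908, chromosome 7), a zinc finger gene of the SCAN family, had 7.51, 7.41 and 7.57 RPKM of RNA under silvestrol, against 6.15, 6.22 and 6.12 RPKM under DMSO. The groups did not overlap, and the log2 change was 0.26 (SE 0.032, adjusted p = 0.0455 by limma). ZNF394 footprints were 5.64 and 7.01 RPKM under silvestrol and 9.57 and 5.49 RPKM under DMSO, and overlapped. Without any 1 of the 6 RNA libraries, neither gene passed the limma threshold, with adjusted p of 0.0736 to 0.151 for ZNF184 and 0.0736 to 0.192 for ZNF394. Nor did either pass with TMM scaling, at adjusted p of 0.0581 for ZNF184 and 0.0622 for ZNF394, and ZNF394 missed it with median scaling at 0.0668.

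ZNF174 and ZNF319, both on chromosome 16, came next to these calls, and were picked after their values were seen. ZNF174, of the SCAN family, had 6.26, 5.82 and 6.18 RPKM of RNA under silvestrol and 4.85, 4.96 and 4.92 RPKM under DMSO, with a log2 change of 0.28 (adjusted p = 0.0594 by limma). ZNF319 had 3.75, 3.64 and 3.52 RPKM under silvestrol and 2.92, 3.08 and 2.88 RPKM under DMSO, with a log2 change of 0.26 (adjusted p = 0.112 by limma). Neither gene's groups overlapped and neither was called over 12350 genes. When only the 10297 genes with at least 1 RPKM in both RNA and footprints were tested, 4 members were called higher, ZNF184, ZNF394, ZNF174 and ZNF319, against 0.272% of those genes, and 0 members were called lower, against 0.00971%.

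Most changes were smaller than these. Only 18 members had an RNA log2 change above 0.2, 9 of them on chromosome 19. Abundant members lay between these and the median. ZNF146 had 40.9, 43.1 and 41.9 RPKM of RNA under silvestrol, against 38.8, 36.7 and 39.3 RPKM under DMSO, a log2 change of 0.13 (SE 0.034, adjusted p = 0.257 by limma). ZNF639, a transcription factor gene on chromosome 3, had 20.0, 20.7 and 19.8 RPKM under silvestrol, against 18.2, 18.6 and 18.5 RPKM under DMSO, a log2 change of 0.13 (SE 0.029, adjusted p = 0.205 by limma). In both genes every silvestrol value was above every DMSO value, and neither gene passed the test. The 1 member with the opposite order, named after its values were seen, was ZNF277, whose protein binds a small-subunit ribosomal protein. It had 4.87, 5.11 and 5.08 RPKM under silvestrol and 5.23, 5.21 and 5.35 RPKM under DMSO, a log2 change of -0.062 (adjusted p = 0.725 by limma).

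**Figure D2:**
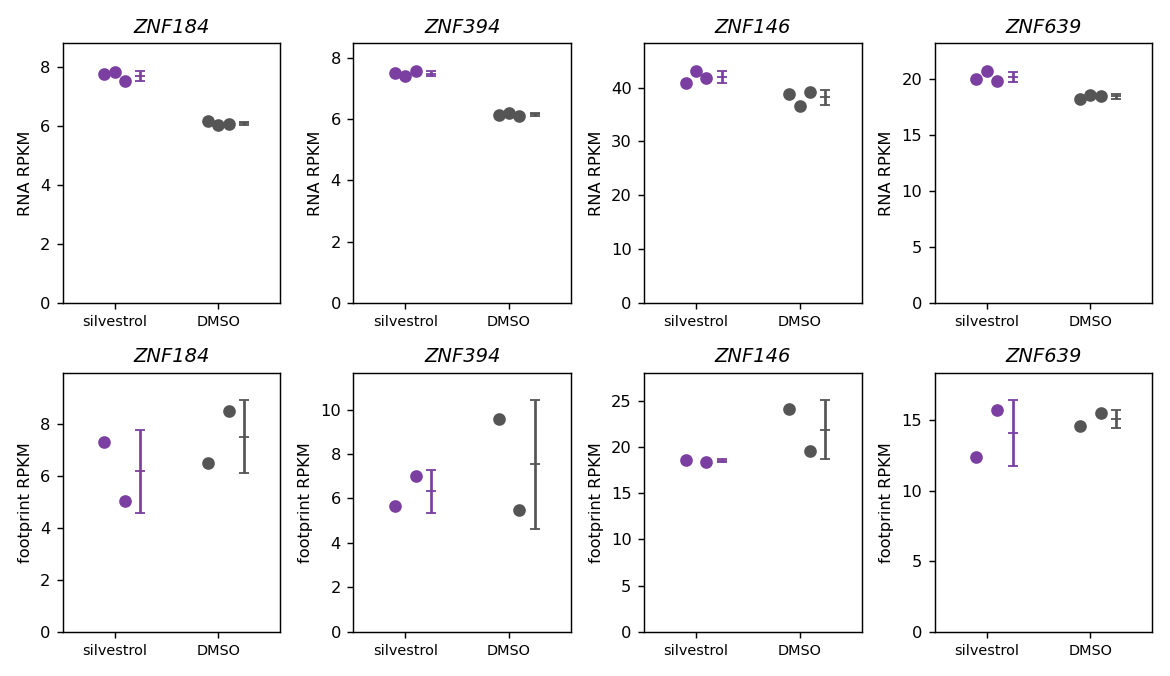
RNA RPKM (top) and footprint RPKM (bottom) of ZNF184, ZNF394, ZNF146 and ZNF639 in each library, with bars for the mean and SD, silvestrol left and DMSO right. RNA of ZNF184 sat at 7.51 to 7.81 RPKM in silvestrol libraries and at 6.03 to 6.15 RPKM in DMSO libraries, while its footprint values overlapped.

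The higher RNA was found on chromosome 19 and elsewhere. On chromosome 19 the median log2 change was 0.091 (6.48% higher), 128 of 141 members were above 0, and 67 (47.52%) had all silvestrol values above all DMSO values. Elsewhere the median was 0.065 (4.61% higher), 133 of 149 members were above 0, and 52 (34.90%) had non-overlapping higher values. Among chromosomes with at least 10 members, the median change was 0.048 on chromosome 7, 0.078 on chromosome 16, 0.079 on chromosome 1 and 0.062 on chromosome 12. By library, the median member on chromosome 19 had 4.17, 4.08 and 4.12 RPKM of RNA under silvestrol, against 3.82, 3.74 and 3.72 RPKM under DMSO. The median member elsewhere had 6.26, 5.97 and 6.30 RPKM under silvestrol, against 5.80, 5.79 and 5.88 RPKM under DMSO. Silvestrol libraries were above DMSO libraries in both, without overlap. The gap between the medians, chromosome 19 minus other chromosomes in log2(RPKM + 0.5), was -0.53, -0.50 and -0.56 under silvestrol and -0.54, -0.57 and -0.60 under DMSO, and this difference between locations was not tested.

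**Figure D3:**
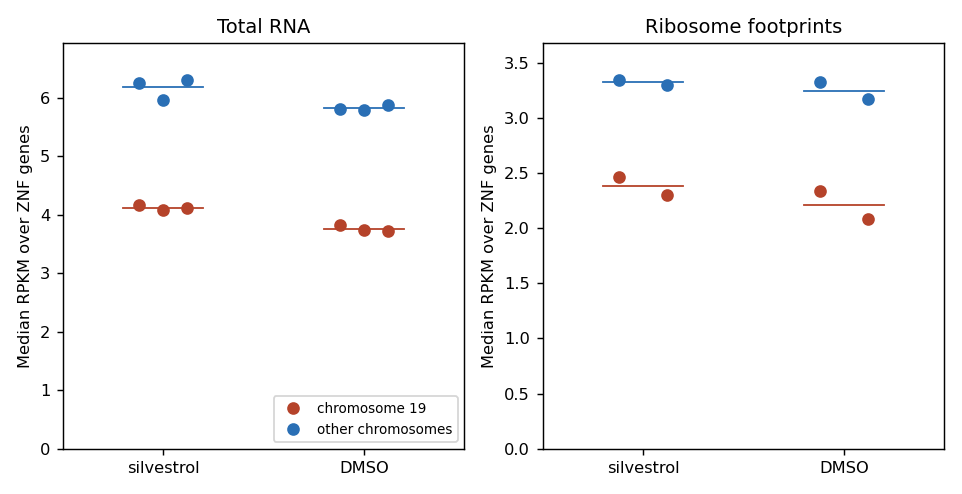
Median RPKM over ZNF genes in each library, total RNA left and footprints right, for 141 genes on chromosome 19 (red) and 149 on other chromosomes (blue), with lines for the group means. RNA medians of the silvestrol libraries lie above those of the DMSO libraries at both locations, whereas footprint medians on chromosome 19 were 2.46 and 2.30 RPKM under silvestrol and 2.34 and 2.08 RPKM under DMSO.

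Other genes of chromosome 19 were also read. The 615 tested protein-coding genes on chromosome 19 that are not members had a median log2 change of 0.0021, with 51.7% above 0 and 6.18% with non-overlapping higher values. For the counts that follow, all genes tested had a median of 0.0028, with 52.3% above 0 and 8.56% higher without overlap. Members with the KRAB pattern had a median of 0.097 on chromosome 19 (56 of 112 without overlap and higher) and of 0.077 elsewhere (25 of 56). Members without the pattern had 0.076 on chromosome 19 (11 of 29) and 0.060 elsewhere (27 of 93). The 57 tested ZNF genes under 2 RPKM had a median of 0.063, with 46 above 0 and 12 non-overlapping and higher. A further 50 genes with symbols in ZBTB, ZSCAN, ZKSCAN or ZFP were picked by symbol stem. ZBTB8OS, an opposite-strand gene that encodes no C2H2 protein, is therefore among them. Of these 50 genes, 43 were above 0, the median was 0.073, and 19 were higher without overlap. None of them, 0 of 50, was called, against 0.0405% of all genes tested.

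Other genes matched on 1 property at a time had medians near 0. Protein-coding genes that are not ZNF had a median log2 change of -0.0006 when their coding GC content lay within the members' interquartile range of 40.4% to 53.8% (4702 genes). The median was 0.0066 for those within the members' interquartile range of RNA level (2321 genes) and -0.0019 for those within the range of exon length (3914 genes). Many members share windows with other loci or overlap other genes, and the part of this in the RNA change was not tested. Of 58 members with no shared 29-base window, 15 were higher without overlap (25.9%), against 29 of 82 with over 10% shared windows (35.37%). Of 136 members whose exons overlap no exon of another gene, 51 were (37.5%). The share was 41.03% in all members and 8.56% in all genes tested. In the 58 members with no shared window the median change was 0.059, with 49 above 0, and in the 82 members with over 10% shared windows it was 0.077, with 72 above 0.

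Footprints of the members were lower than their RNA on the RPKM scale. Under silvestrol the median of log2((footprint RPKM + 0.5)/(RNA RPKM + 0.5)) was -0.75 in members and -0.56 in other protein-coding genes of at least 2 RPKM, and under DMSO it was -0.68 in members and -0.48 in those genes. Under DMSO it was -0.69 on chromosome 19 and -0.67 elsewhere, so the locations were nearly alike, and 253 of 290 members (87.24%) had a ratio below 0, against 75.51% of the other genes. RPKM divides by gene length with untranslated regions included, and a member's coding sequence took a median of 34.3% of its exon length, against 29.9% in the other genes. With footprints per coding length the DMSO median was 0.70 in members, 0.63 on chromosome 19 and 0.74 elsewhere, against 1.16 in the other genes. These ratios were not tested between genes. The extremes under DMSO were ZNF22 at -2.35, with footprints at 2.25 and 7.08 RPKM, and ZNF749 at 1.39.

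**Figure D4:**
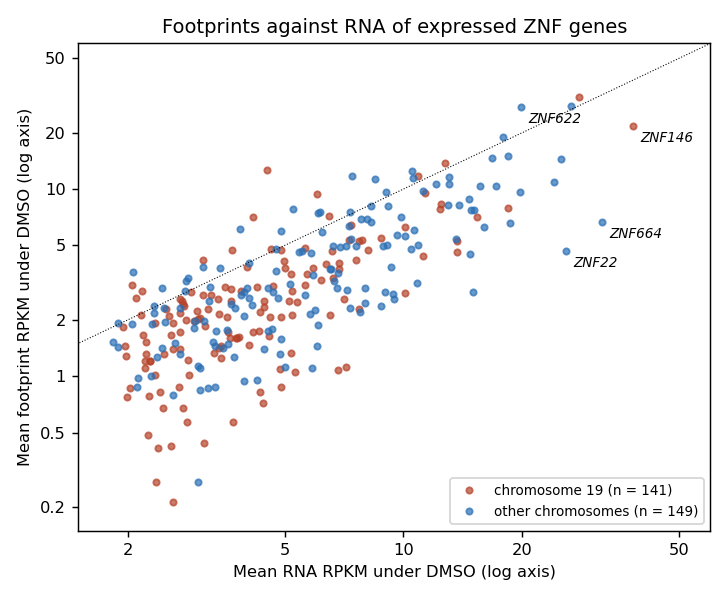
Mean footprint RPKM against mean RNA RPKM under DMSO, both on log axes, for 290 ZNF genes, with a dotted line where both are equal. Most genes (253 of 290) lie below the line, ZNF664 and ZNF22 far below it and ZNF622 above it.

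ZNF622, the ZNF gene with a known role in maturation of the large ribosomal subunit, had 28.7 and 29.8 RPKM of footprints under silvestrol and 29.3 and 25.9 RPKM under DMSO, above its RNA of 21.0, 21.0 and 21.1 RPKM under silvestrol and 20.7, 19.4 and 19.5 RPKM under DMSO. ZNF664 (chromosome 12) showed the opposite relation, with 3.32 and 3.81 RPKM of footprints under silvestrol and 6.0 and 7.32 RPKM under DMSO, beside 30.7 to 33.6 RPKM of RNA under silvestrol and 31.1 to 32.6 RPKM under DMSO. Its coding sequence is 12.4% of its exon length, against 84.4% in ZNF622. ZNF417 and ZNF385C had the fewest footprints, with means of 0.128 and 0.137 RPKM, and 79.5% of the windows of ZNF417 were shared with other loci. In all, 27 members, 22 of them on chromosome 19, averaged under 1 RPKM of footprints and were not tested in footprints, and 4 members were listed at 0 in at least 1 footprint library.

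No change in footprints was shown for any member. The median footprint level of the members was 2.80 and 2.86 RPKM under silvestrol, against 2.78 and 2.65 RPKM under DMSO, and the sum over members was 1143 and 1164 RPKM under silvestrol, against 1195 and 1134 RPKM under DMSO. Medians under silvestrol lay just above those under DMSO, while the sums overlapped. Of the 263 members tested by limma over 10297 genes, 0 were called at an adjusted p under 0.05, against 0.0486% of all genes (0.0194% higher and 0.0291% lower). At an unadjusted p under 0.05, 10 were higher, against 2.12% of all genes, and 5 lower, against 4.87% of all genes. The log2 change was above 0 in 119 of them (45.25%), against 40.5% of all genes, with a median of -0.063 in members and -0.072 in all genes. Both silvestrol values were above both DMSO values in 50 members (19.01%), against 13.1% of all genes, and below both in 46 (17.49%), against 25.2% of all genes.

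Translational efficiency was taken as the change of footprints relative to RNA, tested by limma as an interaction over the 10 libraries with a weight for each assay. Here, too, 0 of 263 members were called, against 0.107% of all genes (0.0194% higher and 0.0874% lower). At an unadjusted p under 0.05 there were 8 higher, against 2.09% of all genes, and 12 lower, against 5.29% of all genes. The log2 change was above 0 in 100 members (38.02%), against 40.1% of all genes, and its median was -0.11 in members and -0.078 in all genes. It was -0.11 on chromosome 19 and -0.11 elsewhere. A fit with 1 spread for both assays called 5 of the 263 members lower and 3 higher. It called 411 of all 10297 genes lower and 134 higher (5.29% in either direction). This fit takes both assays to vary alike, although the median SD of members between replicates was 0.05 in RNA and 0.23 in footprints. Its calls are therefore given only as a check of the setting. ZNF800, ZNF740, ZNF664, ZNF480 and ZNF880 were lower, and ZNF513, ZNF823 and ZNF593OS higher.

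**Figure D5:**
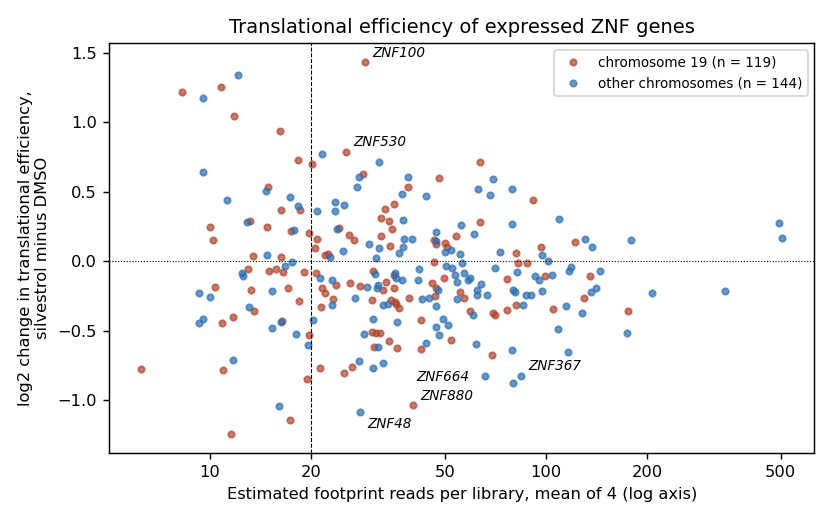
Log2 change in translational efficiency, silvestrol minus DMSO, against the estimated footprint reads per library (mean of 4, log axis) for 263 ZNF genes, with a dashed line at 20 reads. Values spread more widely at few reads, and ZNF100 at 1.44 and ZNF48 at -1.08 are the extremes among genes with at least 20 reads.

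Among members with at least 20 estimated footprint reads per library, the 5 lowest changes in translational efficiency were those of ZNF48, ZNF880, ZNF148, ZNF664 and ZNF367. ZNF880 (chromosome 19, KRAB) had 3.70 and 3.00 RPKM of footprints under silvestrol, against 7.75 and 6.44 RPKM under DMSO. The groups did not overlap, RNA was 4.20 to 4.49 RPKM under silvestrol and 3.85 to 4.41 RPKM under DMSO, and the change in translational efficiency was -1.04 (SE 0.35, adjusted p = 0.476 by limma). ZNF48 (chromosome 16) had 1.57 and 3.41 RPKM of footprints under silvestrol and 4.71 and 5.14 RPKM under DMSO, with a change of -1.08 (SE 0.36, adjusted p = 0.457 by limma). ZNF664, given above, had a change of -0.83 (SE 0.26, adjusted p = 0.419 by limma). In all these genes the silvestrol footprints were below the DMSO footprints, and in none did the difference pass the test. ZNF367 (chromosome 9), a cell-cycle regulated zinc finger gene, had 7.15 and 7.95 RPKM under silvestrol and 17.7 and 11.7 RPKM under DMSO, with a change of -0.82 (SE 0.31, adjusted p = 0.562 by limma).

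The 5 highest changes in translational efficiency at that depth were those of ZNF100, ZNF530, ZNF343, ZNF611 and ZNF654. ZNF100 had 2.61 and 3.74 RPKM of footprints under silvestrol, against 1.33 and 0.426 RPKM under DMSO, with a change of 1.44 (SE 0.40, adjusted p = 0.342 by limma). Of its coding windows 39.9% were shared with other loci, among them the window printed above, and the part of shared reads in this value was not tested. ZNF611, with 47.5% of windows shared, had 5.62 and 5.21 RPKM under silvestrol and 2.34 and 3.83 RPKM under DMSO, with a change of 0.72 (SE 0.42, adjusted p = 0.763 by limma). ZNF530, with 10.3% of windows shared, had 3.97 and 2.49 RPKM under silvestrol and 1.49 and 1.42 RPKM under DMSO, with a change of 0.79 (adjusted p = 0.63 by limma), and its groups did not overlap. ZNF343, with 2.06% shared, differed by 0.77 (adjusted p = 0.676 by limma). The median change in translational efficiency was 0.039 in the 64 tested members with over 10% shared windows, and -0.16 in the 56 with none. By footprints alone the 5 lowest were the same genes as in translational efficiency, and the 5 highest were ZNF100, ZNF530, ZNF343, ZNF611 and ZNF582, from 1.48 to 0.75 on the log2 scale.

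A GC-rich repeat in the 5′ untranslated region, 4 copies of CGG or GGC in a row, was looked for on the transcript strand because repeats of this kind can fold into G-quadruplexes, the structures named in the study's title. It was found in 3 members (1.03%), none on chromosome 19, against 4.68% of other protein-coding genes of at least 2 RPKM. A looser G-quadruplex pattern, 4 runs of at least 2 G with 1 to 7 bases between runs, went the other way. That pattern was found in 211 members (72.76%), against 65.05% of the other genes. Members had longer 5′ untranslated regions, with a median of 226 bases against 178. The repeat read CGGCGGCGGCGG in ZNF212 (chromosome 7, bases 22 to 33 of the 5′ untranslated region), ZNF281 (chromosome 1, bases 95 to 106) and ZNF513 (chromosome 2, bases 13 to 24). ZNF212 differed by 0.16 in translational efficiency (adjusted p = 0.957), ZNF281 by -0.13 (adjusted p = 0.967) and ZNF513 by 1.17 (adjusted p = 0.386), all by limma. ZNF513 rests on 9.51 estimated footprint reads per library, with 3.56 and 2.08 RPKM under silvestrol and 0.933 and 0.763 RPKM under DMSO. The 5′ untranslated regions of members had a median GC content of 60.2%, against 66.2% in the other genes.

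Members with known roles outside KRAB repression, or with well-studied targets, were read as a list of 20 chosen by role. None was called in RNA, footprints or translational efficiency, against 0.0405%, 0.0486% and 0.107% of all genes tested. RNA changes were above 0 in 19 of 20, against 90.0% of all members and 52.3% of all genes tested, and ran from -0.013 to 0.16. Higher silvestrol RNA without overlap was found in 2 of 20, ZNF622 and ZNF274, against 8.56% of all genes and 41.03% of all members. The factors of translation were ZNF622 and ZNF598, the ubiquitin ligase that marks collided ribosomes. ZNF598 had 13.1 and 11.2 RPKM of footprints under silvestrol, against 11.4 and 7.94 RPKM under DMSO, values that overlap, and a change in translational efficiency of 0.30 (SE 0.35, adjusted p = 0.921 by limma). ZNF593, a ribosome biogenesis factor, fell under the threshold with a mean RNA of 0.505 RPKM, whereas ZNF593OS, annotated on the opposite strand, had 10.6 RPKM of RNA. Since the use of strand in the counting is not given, reads of this pair cannot be told apart.

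RNA-binding and splicing members were ZNF207, which also binds the spindle and kinetochore, ZNF326 and ZNF830 of splicing complexes, ZNF638, ZNF346, which binds double-stranded RNA, and ZNF106. ZNF830 had 15.2 and 16.3 RPKM of footprints under silvestrol, against 12.2 and 9.08 RPKM under DMSO, without overlap, and a change in translational efficiency of 0.52 (SE 0.29, adjusted p = 0.741 by limma). ZNF207 was at 14.5 and 17.9 RPKM of footprints under silvestrol and at 14.6 and 14.3 RPKM under DMSO, and overlapped. ZNF326 was at 21.2 and 25.9 RPKM of footprints under silvestrol and at 21.7 and 16.3 RPKM under DMSO, and ZNF638, a partner of HUSH silencing, at 6.06 and 4.84 RPKM under silvestrol and at 3.99 and 5.25 RPKM under DMSO. Their groups overlapped as well. ZNF451, a SUMO ligase, had 4.09 and 4.39 RPKM of footprints under silvestrol and 3.49 and 4.14 RPKM under DMSO, also overlapping.

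Among transcription factors, ZNF143, an activator bound at many promoters, had 6.66 and 5.22 RPKM of footprints under silvestrol and 5.94 and 5.83 RPKM under DMSO, and ZNF384, a fusion partner in B-cell leukaemia, had 10.1 and 12 RPKM under silvestrol and 10.9 and 11.0 RPKM under DMSO. Both pairs of groups overlapped. ZNF148, which binds GC-rich promoters, had 1.79 and 3.63 RPKM of footprints under silvestrol, against 4.05 and 5.58 RPKM under DMSO. It was the only one of the 20 with an unadjusted p under 0.05 in translational efficiency, with a change of -0.88 (SE 0.37, adjusted p = 0.628 by limma). ZNF76, a relative of ZNF143, had 0.991 and 2.17 RPKM of footprints under silvestrol, against 2.27 and 3.63 RPKM under DMSO, lower without overlap and not called (translational efficiency change -0.77, SE 0.37, adjusted p = 0.688 by limma). ZNF410, an activator of the chromatin remodeller gene CHD4, had 5.89 and 5.38 RPKM of footprints under silvestrol and 8.01 and 5.84 RPKM under DMSO, which overlap. ZNF335, a nuclear factor needed for thymocyte maturation in mouse, had 3.46 and 4.56 RPKM under silvestrol and 6.2 and 6.3 RPKM under DMSO, with a change of -0.64 (SE 0.32, adjusted p = 0.701 by limma). ZNF217, an oncogene amplified in carcinomas, had 12.7, 13.9 and 14.1 RPKM of RNA under silvestrol, against 11.8, 11.6 and 12.8 RPKM under DMSO, which overlap.

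The repressors ZNF91, ZNF93 and ZNF274 on chromosome 19 had RNA within the interquartile range of chromosome 19 members, 2.84 to 6.03 RPKM. ZNF91, which silences SVA elements, had 3.43, 3.62 and 3.55 RPKM of RNA under silvestrol, against 3.46, 3.17 and 3.31 RPKM under DMSO. ZNF93, which silences young LINE elements, had 4.02, 3.56 and 3.40 RPKM under silvestrol, against 3.70, 3.34 and 3.32 RPKM under DMSO. Both overlapped between treatments, and 35.6% and 40.1% of their coding windows were shared. ZNF274, which recruits SETDB1 to the ends of other zinc finger genes, had 3.97, 3.93 and 4.51 RPKM of RNA under silvestrol, against 3.82, 3.74 and 3.72 RPKM under DMSO, without overlap. Its footprints were 2.52 and 3.12 RPKM under silvestrol and 1.71 and 1.49 RPKM under DMSO, with a change in translational efficiency of 0.54 (SE 0.36, adjusted p = 0.811 by limma). ZNF649 was listed at 0 in all 10 libraries.

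The cofactors of KRAB repression were read as a list of their own. Of 22 genes listed, 21 were matched and tested, and 0 were called in any of the 3 comparisons. Of all genes tested 0.0405% were called in RNA, 0.0486% in footprints and 0.107% in translational efficiency. Their median RNA log2 change was 0.009, with 13 above 0, against 0.0028 and 52.3% in all genes tested. Higher RNA without overlap was found in 4 of them, against 8.56% of all genes. SETDB1 was among these, with 10.1, 10 and 10.2 RPKM under silvestrol and 9.65, 9.44 and 9.35 RPKM under DMSO. TRIM28 itself had 429, 397 and 417 RPKM of RNA under silvestrol, against 413, 427 and 399 RPKM under DMSO, and 246 and 280 RPKM of footprints under silvestrol, against 328 and 349 RPKM under DMSO. Its RNA values overlapped and its footprints were lower without overlap, with a footprint log2 change of -0.37 (SE 0.13, adjusted p = 0.669 by limma). SETDB1 had 3.92 and 4.58 RPKM of footprints under silvestrol, against 7.28 and 6.37 RPKM under DMSO, and a change in translational efficiency of -0.71 (SE 0.23, adjusted p = 0.419 by limma). Over the 21 cofactors the median change was -0.10 in footprints, with 5 above 0, of which ATRX was the highest at 0.23. Besides TRIM28 and SETDB1, footprints of KDM1A, CBX1, DNMT1, TASOR and ATF7IP were lower without overlap. Those of ATRX and PPHLN1 were higher without overlap, and the other cofactors overlapped. All genes tested had a median of -0.072, with 40.5% above 0. Of all genes 25.2% had lower and 13.1% higher footprints without overlap. In translational efficiency the median of the cofactors was -0.091, with 6 above 0, against -0.078 and 40.1% in all genes.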

How the data were processed

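The authors deposited RPKM values per gene ID, 1 file per library, per the file headers. The submitters' processing notes name STAR and the build hg19. The counting tool, gene lengths and use of strand, and how reads matching several loci were counted, are not stated there. Chromosomes, exon and coding lengths and sequences came from GENCODE release 29 (GRCh38), matched by ID, and no coordinates of either build are given. The genes, lists and tests were chosen with earlier results of these data known.

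Values were taken as log2(RPKM + 0.5). RNA was tested on the 6 RNA libraries over genes with a mean RNA of at least 1 RPKM, and footprints and translational efficiency over genes with at least 1 RPKM in both assays, translational efficiency with arrayWeights per assay. Tests used R 4.3.3 and limma 3.58.1 (trend and robust), two-sided, with Benjamini-Hochberg adjustment. TMM factors were computed on the RPKM values. The tests were also run on simulated reads with the same added spread for every gene of an assay. The outcome is not given here, and such data cannot show how the tests fare on the real spread between libraries. The deposited values carry no depth, so reads were estimated from the steps of low values; 88.1% to 92.7% of low values lay within 0.05 of a whole read. Besides the 20 genes chosen by role, the text names the 10 members with the highest RNA, those called in RNA, and the 5 lowest and 5 highest members in footprints and in translational efficiency at 20 or more estimated reads. Other members named as the few behind a count were picked after their values were seen. Settings tried were pseudocounts, scalings, filters, a replicate block and leaving out each library.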

Additional observations from a re-analysis of the deposited data

How the results depend on the processing

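The shift of RNA kept its direction under every setting tried for it: the median change of all members ran from 0.068 to 0.085, on chromosome 19 from 0.077 to 0.11 and elsewhere from 0.054 to 0.079, and 247 to 263 members were above 0. Members higher without overlap numbered 105 with median scaling (36.2%, against 6.83% of all genes) and 116 with TMM factors (40%, against 8.17%). Without 1 library they numbered 133 to 158, against 11.8% to 14.8% of all genes. The ends of these 2 ranges come from different libraries left out. They numbered 51 of 136 without overlapping exons and 15 of 58 without shared windows. At a threshold of 5 RPKM they numbered 53 of 135, and at 1 RPKM 131 of 347. For these 4 counts the share of all genes tested was 8.56%. Members lower without overlap numbered 1, 2 with median scaling, 0 without overlapping exons, 3 at a threshold of 1 RPKM and 1 to 5 without 1 library. Of all genes tested 4.22% were lower without overlap in the main setting. That share is not given for the other scalings or with a library left out. Calls of higher RNA, 2 in all, were 1 with median scaling, 0 with TMM factors and 0 with no filter on low values. They were 4 with a filter on both assays and 0 without any 1 library. With a replicate block there was 1, and ZNF394 was not called (adjusted p = 0.096 by limma). Of all genes tested 0.0405% were called higher in the main setting and 0.272% with the filter on both assays. The share in the other settings is not given. Deviations of same-numbered libraries from their group means had r of 0.042, -0.33 and 0.15 in RNA and -0.033 in footprints. With so few libraries per group, these values cannot tell whether same-numbered libraries are paired. ZNF174 was called with a stricter filter of 2 RPKM (adjusted p = 0.0352 by limma). With 1 spread for both assays, 3 members were called higher and 5 lower in translational efficiency, against 5.29% of all genes. That setting takes RNA and footprints to vary alike, which their replicates did not, and the cause of these calls was not tested. The direction of small footprint values was not stable. The median footprint change became -0.018 in all members and -0.026 outside chromosome 19 with median scaling, and 0.0072 and 0.00041 with TMM factors; without 1 library it ran from -0.053 to 0.020 in all, from -0.12 to 0.051 on chromosome 19 and from -0.034 to 0.019 elsewhere. In translational efficiency the medians were -0.060 in all and -0.062 elsewhere with median scaling, and -0.044 and -0.046 with TMM factors; without 1 library they ran from -0.14 to -0.051 in all, from -0.18 to -0.025 on chromosome 19 and from -0.12 to -0.056 elsewhere. The footprint to RNA ratio was -0.75 in all and -0.75 elsewhere with a pseudocount of 0.1, -0.59 in all, on chromosome 19 and elsewhere with 1, and 0.70, 0.63 and 0.74 per coding length; without 1 library it ran from -0.72 to -0.63 in all, from -0.74 to -0.62 on chromosome 19 and from -0.69 to -0.64 elsewhere. Small changes in translational efficiency turned sign. With median scaling ZNF106 became 0.012, ZNF143 0.014 and ZNF384 0.023, and with TMM factors 0.030, 0.034 and 0.043. Leaving out 1 library gave ranges of -0.31 to 0.22 for ZNF106, -0.21 to 0.12 for ZNF143, -0.16 to 0.079 for ZNF384, -0.017 to 0.34 for ZNF638, -0.0090 to 0.21 for ZNF451, -0.15 to 0.97 for ZNF91, -0.084 to 0.091 for ZNF622 (with values of -0.023 and -0.025 without other libraries), -0.32 to 0.053 for ZNF281, -0.27 to 0.70 for ZNF93 and -0.031 to 0.36 for ZNF212. Depth limits footprints: 86 members had under 20 estimated reads per library.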
